A study of Homo sapiens with 36 samples.

Results

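The sites described here are stretches of chromatin where an antibody against GATA2 gave a peak in every library of every cell population studied, but where an antibody against the HA tag gave none in cells carrying HA-tagged T354M, a disease-associated mutant of GATA2. They were chosen by peak presence: peaks of 28 libraries on chromosomes 1 to 22 and X were merged into 17277 sites when they shared at least 1 bp, 1200 of these had an anti-GATA2 peak in 16 of 16 libraries (the constant sites), and 620 of the constant sites had a T354M anti-HA peak in 0 of 4 libraries. The absence of T354M anti-HA peaks at these 620 members is therefore the selection itself and not a result. The other constant sites serve as the comparison: 204 had a T354M anti-HA peak in 4 of 4 libraries and are called held sites, and 376 had one in 1 to 3 of 4 and are called partly held sites.

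GATA2 is a zinc finger transcription factor that binds the DNA word GATA, and it is needed for blood stem and progenitor cells and for early erythroid, mast cell and megakaryocyte differentiation. As erythroid cells mature, GATA1 replaces GATA2 at many of the same sites. Inherited GATA2 variants cause immunodeficiency, myelodysplasia and leukaemia, and T354M changes a threonine in the DNA-binding zinc finger region.

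Binding was measured by CUT&Tag, in which an antibody directs a transposase to the chromatin it recognises so that nearby DNA is cut and sequenced. The cells were HUDEP-2, an immortalized human erythroid progenitor line, either wild-type or GATA2-low (genotype label GATA2+/-), infected with lentivirus and sorted for GFP. The 7 groups of 4 libraries were wild-type cells with empty vector and GATA2-low cells with empty vector, HA-GATA2 or HA-GATA2(T354M), all with anti-GATA2, and the same GATA2-low populations with anti-HA. The labels name no clone or culture for the 4 replicates of a group, so the spread between them may be technical, and the endogenous GATA2 still made by GATA2-low cells cannot be told apart from the tagged proteins in the anti-GATA2 lists. 1 library, GATA2-low empty vector anti-GATA2 replicate 1, carries a wild-type genotype label against its title. The title was followed, and comparisons with the GATA2-low empty vector group are also given without this library.

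Peaks per library numbered 6577 to 9154 in wild-type cells, 1839 to 3667 in GATA2-low cells with empty vector, 7085 to 12208 with HA-GATA2 and 2789 to 6326 with T354M for anti-GATA2. With anti-HA they numbered 1 to 13 for the empty vector, 1925 to 6089 for HA-GATA2 and 432 to 750 for T354M. The files give no read totals, but the lowest fragment background that could be recovered from a list, a relative measure of depth, was 0.403 ± 0.0261 in the HA-GATA2 and 0.374 ± 0.0251 in the T354M anti-HA libraries (SD, n = 4 each). The weakest T354M anti-HA peaks held 9 to 10 fragments and the weakest HA-GATA2 anti-HA peaks 8 to 9. The median T354M anti-HA peak held 25 to 27 fragments. A site without a listed T354M peak can still hold fragments, and how many go unlisted depends on its local background, so the lack of a peak is not an absence of protein.

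Sequences were at hand only for promoters, which hold a small share of the members, so they do not show what members in general look like. Apart from 53 sites without an entry in the promoter table used, 42 of 567 members (7.41%) had their anti-GATA2 summit within 1000 bp of a transcription start, against 6.21% of partly held and 6.74% of held sites. At 51 sites the members overlapped the 300 bases around the start of 72 RefSeq promoters of 62 genes. Promoters that share a site were counted separately, so they are not independent windows. The word AGATAA or AGATAG or TGATAA or TGATAG, on either strand, occurred in 33 of these 72 promoters (45.8%), in 33.3% of the promoters overlapped by partly held sites, in 47.6% of those overlapped by held sites and in 22.3% of all 34961 promoters of the table. These shares describe letters in a window and do not show that GATA2 contacts them.

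The upstream 250 bases of 8 member promoters are given. EPN2-IT1 has the most such words, 4, and 12 promoters tie at 2. Of these, the 5 with the highest mean anti-GATA2 percentile are shown, together with CPOX and SPTB, 2 red cell genes added after their values were seen. Capitals mark the GATA words on either strand; all sequences are RefSeq, GRCh38.p14, written 5′ to 3′ on the strand of the gene. KLF1 is the master regulator of adult globin and red cell genes, GYPB and GYPE are glycophorin genes, CPOX encodes coproporphyrinogen oxidase of the heme pathway, SPTB encodes β-spectrin of the membrane skeleton, MARCHF2 encodes a membrane ubiquitin ligase, and EPN2-IT1 and LOC101927281 are transcripts without a known protein. The coordinates are chr19:12887202-12887451 for KLF1, chr4:144019346-144019595 for GYPB, chr4:143905560-143905809 for GYPE, chr3:98593612-98593861 for CPOX and chr14:64879908-64880157 for SPTB, all on the minus strand, and chr19:8418102-8418351 for MARCHF2, chr17:19271143-19271392 for EPN2-IT1 and chr9:73357666-73357915 for LOC101927281, all on the plus strand.
KLF1: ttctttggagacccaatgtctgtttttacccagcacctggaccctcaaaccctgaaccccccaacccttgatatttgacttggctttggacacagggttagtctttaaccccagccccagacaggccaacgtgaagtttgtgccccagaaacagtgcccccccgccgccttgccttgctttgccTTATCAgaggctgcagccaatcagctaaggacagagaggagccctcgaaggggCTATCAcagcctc
GYPB: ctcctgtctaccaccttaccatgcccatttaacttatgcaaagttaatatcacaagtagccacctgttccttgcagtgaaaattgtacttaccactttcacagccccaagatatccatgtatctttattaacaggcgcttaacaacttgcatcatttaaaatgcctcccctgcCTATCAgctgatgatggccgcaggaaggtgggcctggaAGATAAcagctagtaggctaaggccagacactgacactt
GYPE: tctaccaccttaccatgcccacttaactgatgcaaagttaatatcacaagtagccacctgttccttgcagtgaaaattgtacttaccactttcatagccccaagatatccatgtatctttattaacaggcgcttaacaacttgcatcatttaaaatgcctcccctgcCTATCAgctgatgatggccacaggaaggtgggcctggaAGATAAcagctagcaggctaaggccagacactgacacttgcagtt
CPOX: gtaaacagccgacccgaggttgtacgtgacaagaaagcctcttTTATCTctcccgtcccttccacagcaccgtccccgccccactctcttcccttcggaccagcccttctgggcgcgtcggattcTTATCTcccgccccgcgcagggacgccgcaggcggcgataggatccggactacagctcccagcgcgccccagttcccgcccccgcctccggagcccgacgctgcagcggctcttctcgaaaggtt
SPTB: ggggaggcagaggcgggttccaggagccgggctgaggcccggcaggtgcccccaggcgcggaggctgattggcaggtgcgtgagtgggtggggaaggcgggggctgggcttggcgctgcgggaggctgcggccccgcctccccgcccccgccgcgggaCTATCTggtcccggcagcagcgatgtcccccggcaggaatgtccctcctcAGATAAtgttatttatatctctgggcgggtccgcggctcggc
MARCHF2: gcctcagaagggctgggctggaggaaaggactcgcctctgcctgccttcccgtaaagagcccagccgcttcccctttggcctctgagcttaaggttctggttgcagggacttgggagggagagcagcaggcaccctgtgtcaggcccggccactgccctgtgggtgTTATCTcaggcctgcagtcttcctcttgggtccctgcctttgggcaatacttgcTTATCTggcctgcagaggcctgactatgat
EPN2-IT1: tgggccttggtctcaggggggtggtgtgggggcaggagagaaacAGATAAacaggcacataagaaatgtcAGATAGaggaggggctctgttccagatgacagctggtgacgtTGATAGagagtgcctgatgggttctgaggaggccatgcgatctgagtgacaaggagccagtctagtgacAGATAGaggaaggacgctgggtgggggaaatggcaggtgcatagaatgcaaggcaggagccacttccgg
LOC101927281: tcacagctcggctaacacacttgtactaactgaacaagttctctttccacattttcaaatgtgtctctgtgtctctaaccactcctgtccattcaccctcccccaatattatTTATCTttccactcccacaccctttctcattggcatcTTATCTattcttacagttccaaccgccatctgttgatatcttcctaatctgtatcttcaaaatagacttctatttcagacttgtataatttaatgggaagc

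In KLF1 the words lay 66 and 13 bases before the start, as TTATCA and CTATCA, which are GATA words read on the opposite strand. GYPB had CTATCA at 77 and AGATAA at 39 bases before its start, and GYPE had the same pair at 83 and 45 bases. The GYPB and GYPE stretches are paralogous: 239 of 256 aligned columns were identical (93.4%), so short fragments may have been placed at either gene by the authors' alignment and the peaks at these 2 genes are uncertain. CPOX had TTATCT at 207 and 125 bases before the start and SPTB had CTATCT at 92 and AGATAA at 42 bases. The EPN2-IT1 promoter held 4 words, at 206, 180, 138 and 69 bases.

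Each of these sites had an anti-HA peak of HA-GATA2 in 4 of 4 libraries, except LOC101927281 with 3 of 4. Over all 12 promoters with 2 words the number was 4 of 4 at 6, 3 of 4 at 5 and 0 of 4 at 1, so the printed set leans to 4 of 4. At KLF1 the anti-HA summits of HA-GATA2 held 72, 82, 89 and 46 fragments, at EPN2-IT1 66, 64, 75 and 55, and at GYPB 28, 39, 38 and 30. These heights lie well above the weakest peaks of the same lists. The KLF1 site spans chr19:12885817-12888313 and the GYPB site chr4:144019164-144019832, both at the upstream end of the gene.

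Without the tag, no anti-HA peak fell on these regions: the empty vector anti-HA libraries had a peak at 0 of the 620 members, and at 0 of the partly held and held sites. With wild-type HA-GATA2, 87.6%, 91.8%, 93.5% and 48.4% of the members had an anti-HA peak in replicates 1 to 4, a mean of 80.3% ± 21.4 (SD, n = 4). Replicate 4, which has the shortest of the 4 lists, is low and the other three lie close together, at 91.0% ± 3.06 (SD, n = 3) without it. The same share was 97.5% ± 4.08 at partly held and 99.6% ± 0.735 at held sites (SD, n = 4 each). Among the members, 299 had an HA-GATA2 anti-HA peak in 4 of 4 libraries, 222 in 3, 52 in 2, 26 in 1 and 21 in none.

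Fisher's exact test of each site on libraries with and without a peak called 299 of 620 members (48.2%) for HA-GATA2 against empty vector with anti-HA, against a background of 1753 of the 6916 sites that any of these 8 libraries listed, or 25.3%. A call means a peak in 4 of 4 against 0 of 4 libraries (exact p = 0.0286, the smallest this design allows, Benjamini-Hochberg adjusted p = 0.0286 over the 1754 sites that could pass). Of the 620 members, 599 had a peak in these libraries and could be tested. The empty vector gave no peak at any constant site, so a call there only restates a peak in 4 of 4 HA-GATA2 libraries. Of the 1754 sites that could pass, 1753 were called, so the adjusted p adds nothing to that count. The corresponding counts were 343 of 376 partly held (91.2%) and 201 of 204 held sites (98.5%). The 6916 sites were not required to have an anti-GATA2 peak in every library, as the members were. Set against the other constant sites, which were, the members had the lower share of calls. Adjusted over every tested site the exact p became 0.113 and no site was called, and without HA-GATA2 replicate 4 the count of members rose from 299 to 520.

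**Figure D1:**
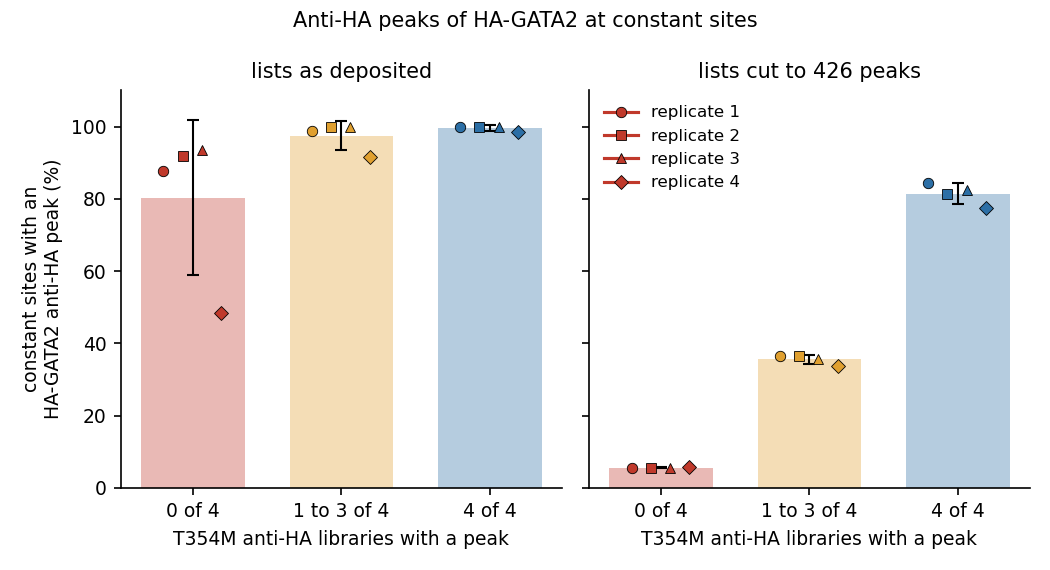
Share of constant sites with an HA-GATA2 anti-HA peak (y axis, percent) by the number of T354M anti-HA libraries with a peak (x axis), with lists as deposited on the left and cut to the length of the shortest T354M list on the right. Symbols are the 4 replicates, bars their mean and error bars the SD; members go from a mean of 80.3% to 5.56% when the lists are cut.

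The members were also the constant sites with the lower HA-GATA2 signal. The median anti-HA peak of HA-GATA2 at members held 37.2 ± 5.62 fragments, at partly held sites 54.4 ± 11.4 and at held sites 86.2 ± 19.2 (SD, n = 4 libraries each). For comparison, the median T354M anti-HA peak at held sites held 34.6 ± 2.50 fragments. When the anti-HA lists of both tagged proteins were cut to 426 peaks, the length of the shortest T354M list, by -log10 q, HA-GATA2 had a peak at 5.56% ± 0.161 of the members, 35.6% ± 1.25 of the partly held and 81.4% ± 2.89 of the held sites (SD, n = 4). With lists of that length the number of members with an HA-GATA2 peak in 4 of 4 libraries was 14, so among the strongest peaks of each list the members were rare for wild-type HA-GATA2 also. List length moved with the tagged protein, and its part in the membership was not tested.

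Anti-GATA2 strength placed the members in the lower part of the constant sites in every group. Strength was taken as the percentile of a site's strongest peak by -log10 q among the 1200 constant sites of a library, where 0 is weakest and 100 strongest; this ranking uses a set of the same length in each library, so a fall of some sites is always matched by a rise of others. The median percentile of members was 34.4 ± 0.434 in wild-type cells, 38.2 ± 1.39 in GATA2-low cells with empty vector, 35.9 ± 0.107 with HA-GATA2 and 33.8 ± 0.524 with T354M (SD, n = 4 libraries each). Held sites had medians of 85.4, 82.2, 82.9 and 85.9 and partly held sites 58.7, 54.0, 57.0 and 57.8 in the same order. Single members nevertheless ranged in their mean over 16 libraries from 2.33 to 92.9, so the class spans almost the whole scale.

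**Figure D2:**
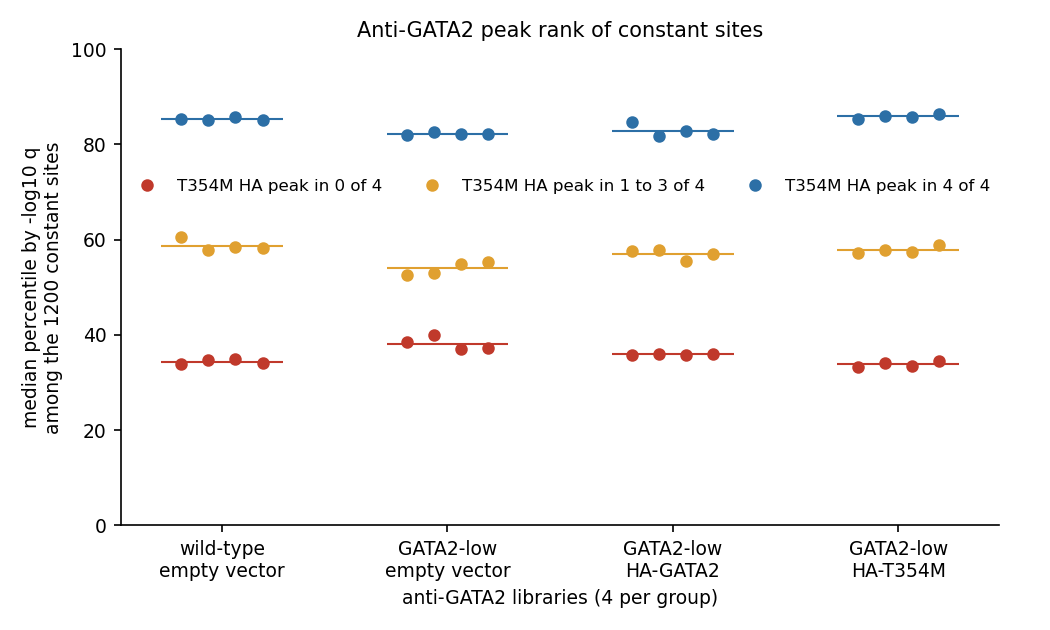
Median percentile by -log10 q among the 1200 constant sites (y axis) in each of the 16 anti-GATA2 libraries (points) of 4 groups (x axis), with the group mean as a line. Members lie between 33.3 and 40 in all 16 libraries, below both other classes.

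Sorting the constant sites into 5 bins of 240 by their mean wild-type percentile gave 191 members in the weakest bin, then 165, 147, 90 and 27 in the strongest. Held sites went the other way, with 4, 8, 11, 49 and 132. In the strongest bin the median HA-GATA2 anti-HA height, over the libraries with a peak, was 56.2 fragments at the 27 members, 75.2 at the 81 partly held and 104 at the 132 held sites. In the weakest bin it was 29.7 at the 191 members. Within the strongest bin the members were thus also lower in HA-GATA2 anti-HA height than the held sites, a difference given here as a description.

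**Figure D3:**
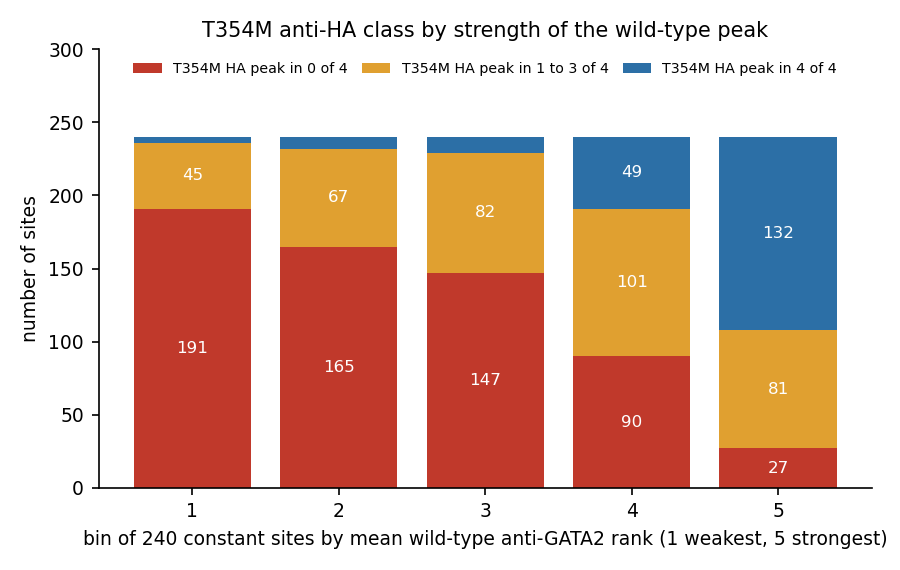
Number of constant sites (y axis) in each of 5 bins by mean wild-type anti-GATA2 percentile (x axis, 1 weakest and 5 strongest), split by T354M anti-HA class. Members fall from 191 to 27 and held sites rise from 4 to 132 across the bins.

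The merged members were also narrower than the other constant sites, with a median width of 846.5 bp against 1011.5 bp for partly held, 1195 bp for held and 402 bp for all 17277 sites. Just outside the selection, the 139 constant sites with a T354M anti-HA peak in 1 of 4 libraries had a median percentile of 47.1, and 84.9% of them had an HA-GATA2 anti-HA peak in 4 of 4 libraries. The 300 sites without T354M anti-HA peaks that missed 1 of the 16 anti-GATA2 peaks had HA-GATA2 anti-HA peaks in 4 of 4 libraries in 34.7% of cases. Of these 300, 230 missed a GATA2-low empty vector library and 67 a T354M library. Among the members the median percentile was 35.1 and the share with HA-GATA2 anti-HA peaks in 4 of 4 libraries 48.2%, and at sites with 2 and 3 T354M anti-HA libraries that share was 92.4% and 98.1%.

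The strongest members by mean percentile lay at genes of varied function. The site in MBNL2 (chr13:97326896-97328427), a regulator of splicing, stood highest with a mean of 92.9. Its percentiles were 96.0, 95.1, 94.0 and 96.0 in wild-type cells, 95.3, 97.0, 96.8 and 96.7 with empty vector in GATA2-low cells, 88.7, 86.6, 89.9 and 89.0 with HA-GATA2 and 92.4, 94.7, 87.0 and 91.0 with T354M. All 16 values are high, and HA-GATA2 gave anti-HA peaks there of 57, 63, 76 and 40 fragments. The next were sites 12582 bp from RESF1, with a mean of 92.1, and 130989 bp from TRHR, the thyrotropin-releasing hormone receptor, also with 92.1. The site 37912 bp from ASAH1 (acid ceramidase) followed with 89.8. Sites inside PKHD1L1 had 87.5, TTC27 86.1, NCOA3 (a nuclear receptor coactivator) 85.8, MDGA1 84.9 and RSAD2 (the antiviral protein viperin) 84.3. The site 44707 bp from CA8 had 84.1.

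At the TRHR site HA-GATA2 gave anti-HA peaks of 113, 136, 143 and 78 fragments, and at the MDGA1 site, inside the gene at chr6:37666910-37668411, of 112, 130, 148 and 67. All of these exceed the median of the held sites in the same library, which was 85, 96, 104 and 60 fragments, yet no T354M anti-HA peak was listed at either. MDGA1, a cell adhesion molecule, had percentiles of 96.8, 98.5, 96.6 and 95.5 with HA-GATA2 and 87.3, 82.1, 77.8 and 82.2 with T354M, and the 4 T354M values all lie below the 4 HA-GATA2 values. It fell by 0.95 ± 0.16 (SE) on the normal-score scale (limma adjusted p = 0.000988), a scale on which the percentiles of a library have an SD of about 1. In GATA2-low cells with empty vector the MDGA1 site stood at 74.3, 70.4, 57.5 and 78.2, against 90.5, 86.1, 92.0 and 92.6 in wild-type cells. This site thus fell by 0.77 ± 0.16 (SE; limma adjusted p = 0.00315, and 0.00592 without empty vector replicate 1).

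Ranks of members were next compared between cells with T354M and cells with HA-GATA2 by anti-GATA2. The rule used this antibody only through the presence of a peak. However, anti-GATA2 also reads the tagged T354M, whose anti-HA peaks the rule required to be absent. A lower rank with T354M is therefore not independent of the selection. The median percentile was lower with T354M by 2.08 points and the 4 library values of each group did not overlap. limma on normal scores over all 1200 constant sites called 119 members (19.2%), against 227 of 1200 constant sites or 18.9%, so the share of changed members is that of the background. Of the members 47 were higher (7.58%) and 72 lower (11.6%) with T354M, against 10% and 8.92% of all constant sites. By non-overlap of the 4 and 4 percentiles, 177 members (28.5%) differed, 105 lower and 72 higher, against 357 of 1200 constant sites (29.8%).

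The count of members called fell from 119 to 75 without HA-GATA2 anti-GATA2 replicate 4, and to 37 (5.97%; 13 higher, 24 lower) when sites were ranked by the deposited fold enrichment. The same fits called 149 of 1201 and 70 of 1200 constant sites (12.4% and 5.83%), so the members' shares were again near the background. Ranked by fold, the difference in median percentile was -3.48, the same direction. All members called are relative to the other constant sites, since no absolute signal is compared.

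The 5 members that fell most in percentile with T354M were at CELF2, ADAMTS9, SESN1, POU3F1 and FHOD3. The site 6184 bp from POU3F1 (chr1:38037096-38037870), a POU domain transcription factor gene, had percentiles of 53.5, 48.1, 45.3 and 43.7 with HA-GATA2 and 2.83, 3.04, 1.12 and 0.792 with T354M. With T354M it was among the weakest constant sites in each library, and the groups did not overlap. The fall was 2.06 ± 0.23 (SE) on the normal-score scale (limma adjusted p = 9.22e-06). In wild-type cells this site stood at 32.0, 28.8, 32.8 and 33.1 and with empty vector in GATA2-low cells at 14.5, 7.08, 0.625 and 6.04, so that it fell by 1.17 ± 0.23 (SE; limma adjusted p = 0.00188, and 0.000744 without empty vector replicate 1). HA-GATA2 gave anti-HA peaks of 58, 52, 70 and 31 fragments there.

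At CELF2 (chr10:11141370-11142291, inside the gene), which encodes an RNA-binding splicing factor, the percentiles were 55.5, 48.8, 72.1 and 65.0 with HA-GATA2 and 4.92, 0.792, 9.67 and 17.6 with T354M. The site 25040 bp from ADAMTS9, a secreted metalloprotease gene, had 52.6, 66.1, 63.2 and 58.7 with HA-GATA2 and 1.71, 4.83, 19.0 and 7.58 with T354M. At SESN1 (chr6:109045242-109046102, inside the gene), a stress-response gene, they were 43.5, 61.2, 67.7 and 70.5 against 3.96, 10.9, 29.1 and 12.6. None of the 3 pairs of groups overlaps. The limma adjusted p was 0.000866 for CELF2, 0.000145 for ADAMTS9 and 0.00182 for SESN1. At ADAMTS9 and SESN1 the wild-type means were also low, 9.01 and 9.68, so the HA-GATA2 cells were the ones that stood apart. At FHOD3, a formin gene, HA-GATA2 had a mean of 65.8 and T354M 21.9 (limma adjusted p = 0.0207). The FHOD3 call was lost when ranked by fold (adjusted p = 0.105) and without HA-GATA2 replicate 2 or T354M replicate 4.

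The 5 members that rose most from HA-GATA2 to T354M were at QSOX2, KIAA0232, TNS3, JRKL and MORN3. In that order the mean percentiles were 9.22, 13.7, 4.68, 47.7 and 9.39 with HA-GATA2. With T354M they were 53.2, 50.9, 38.5, 79.5 and 41.1. With empty vector in GATA2-low cells, replicate 1 included, they were 58.9, 50.9, 31.5, 75.2 and 53.9. The T354M means thus lay nearer to the empty vector means than to the HA-GATA2 means. Wild-type means were 22.1 at KIAA0232, 21.8 at TNS3, 66.4 at JRKL and 52.9 at MORN3. At QSOX2 (chr9:136237782-136238388, inside the gene), which encodes a sulfhydryl oxidase, the percentiles were 5.58, 9.62, 5.29 and 16.4 with HA-GATA2 and 31.2, 65.8, 53.1 and 62.5 with T354M. It rose by 1.45 ± 0.22 (SE) on the normal-score scale (limma adjusted p = 0.000376), and wild-type cells, at 59.4, 43.4, 46.7 and 22.5, overlapped the T354M cells. MORN3 (chr12:121649470-121650491, inside the gene) had 17.1, 5.75, 6.71 and 7.96 with HA-GATA2 and 46.4, 41.0, 33.6 and 43.5 with T354M (limma adjusted p = 0.00237). Both are among the 21 members without an HA-GATA2 anti-HA peak in any library, and they, with OSBPL2, are the 3 such members with the highest mean percentile. TNS3, a focal adhesion gene, had anti-HA peaks in 2 of 4 HA-GATA2 libraries and a mean percentile of 4.68 with HA-GATA2 and 38.5 with T354M (limma adjusted p = 0.00226). The sites 5504 bp from KIAA0232 and 424123 bp from JRKL had such peaks in 3 of 4. At KIAA0232 the HA-GATA2 percentiles were 34.5, 5.58, 7.46 and 7.17, with replicate 1 apart from the rest, and its call (limma adjusted p = 0.00864) was lost by fold (0.0814).

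**Figure D4:**
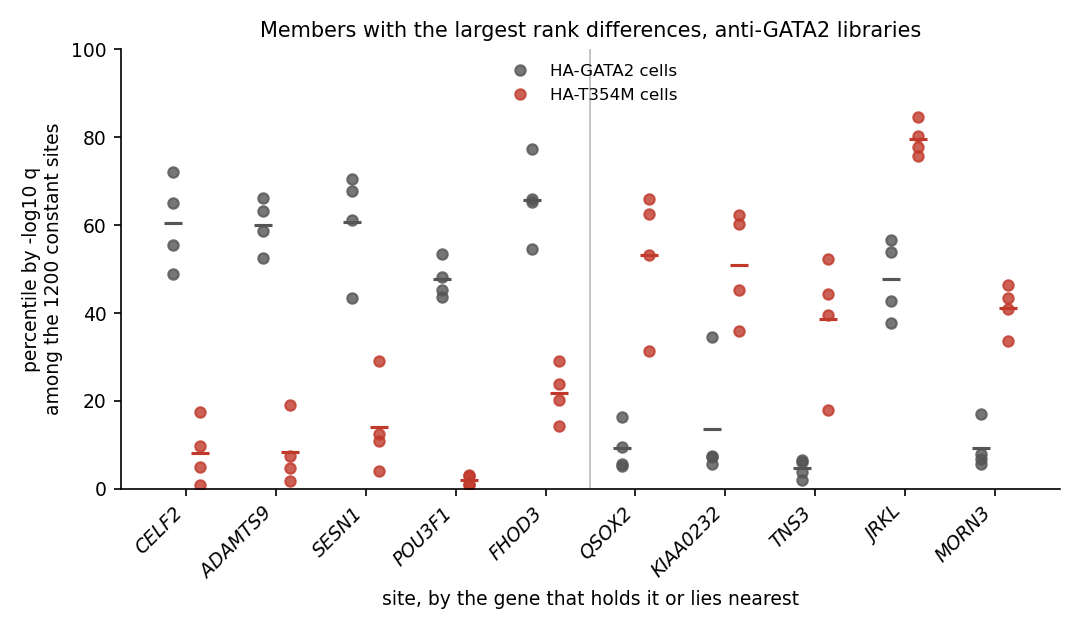
Percentile by -log10 q among the 1200 constant sites (y axis) in the 4 HA-GATA2 (grey) and 4 T354M (red) anti-GATA2 libraries for the 5 members that fell most and the 5 that rose most (x axis), with group means as lines. The points of the 2 groups do not overlap at any of the 10 sites, which were chosen for this.

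The effect of lower endogenous GATA2 was compared in GATA2-low and wild-type cells with empty vector. The rule required a peak in all 4 GATA2-low empty vector libraries, which had the shortest anti-GATA2 lists. Of the 300 sites without T354M anti-HA peaks that missed 1 anti-GATA2 peak, 230 missed one in this group and 1 in wild-type cells. Higher ranks of members in GATA2-low cells, at single sites too, are therefore not independent of the selection. The median percentile of members was higher by 3.82 points in GATA2-low cells, without overlap of the 4 and 4 libraries. limma called 105 members (16.9%), again close to the 199 of 1200 constant sites (16.6%), with 82 higher (13.2%) and 23 lower (3.71%) against 8.67% and 7.92% of all constant sites. Without the empty vector replicate whose genotype label disagrees with its title, the rule gave 728 members of 1360 constant sites and 132 of them were called, 94 higher (12.9%) and 38 lower (5.22%), against 8.75% and 9.34% of all constant sites. The difference in medians was then 3.92 points. Ranked by deposited fold, 64 of the called members were higher (10.3%) and 42 lower (6.77%), against 9.58% and 8.92% of all constant sites, so the excess of higher calls was mostly gone, and the difference in medians was 1.16 points.

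JAK1, the kinase that signals from many cytokine receptors, held a member (chr1:64864032-64864437) that was higher in GATA2-low cells. The difference was 1.18 ± 0.21 (SE) on the normal-score scale (limma adjusted p = 0.00119, and 0.00269 without empty vector replicate 1). This call held in all alternatives in which the site could be followed. The percentiles were 2.125, 0.375, 4.75 and 2.375 in wild-type cells and 21.9, 11.5, 23.25 and 17.9 with empty vector in GATA2-low cells. Every one of these libraries thus placed it among the weaker constant sites. A member at RHD was higher by 0.71 ± 0.16 (SE; limma adjusted p = 0.0042, and 0.014 without that replicate), but RHD and RHCE are near-identical neighbours and fragments may be shared between them. The site at GFI1B and the STAT3 site outside the gene (chr17:42312409-42313197) passed narrowly, with limma adjusted p of 0.0471 and 0.0448. Without empty vector replicate 1 the values were 0.0623, which lost the GFI1B call, and 0.0386. The stronger STAT3 site, inside the gene (chr17:42319639-42320477), was lower by 0.39 without a call (limma adjusted p = 0.463). Without that replicate it was higher by 0.13, also without a call (limma adjusted p = 0.615). The GFI1B call was lost in 15 of 32 alternatives and the STAT3 call in 13, most of which left out 1 library of any group, with adjusted p up to 0.157 and 0.136. The remaining contrasts of group medians, which reuse the same libraries, were -2.30 points for HA-GATA2 minus GATA2-low empty vector, -4.38 for T354M minus GATA2-low empty vector, 1.52 for HA-GATA2 minus wild-type and -0.56 for T354M minus wild-type. Only the last had overlapping libraries, and by deposited fold the 4 became 3.21, -0.27, 4.36 and 0.885, so that the first and the last changed sign. Without empty vector replicate 1 they were -2.65, -4.88, 1.26 and -0.965.

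Peak summits at members lay about as far apart between groups as within them. The median distance between summits of T354M and HA-GATA2 libraries was 18.9 bp, against 18.1 bp between libraries of the same group. For GATA2-low empty vector and wild-type libraries the distances were 28.6 and 27.3 bp. All 6 pairs of groups had a median over members of between minus within distance of -0.521 to 0.104 bp.

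Most members lay within or near genes but far from starts: 328 of 620 (52.9%) had their summit inside a protein-coding gene, 100 lay outside but within 10 kb of one, and 68 lay beyond 100 kb. Held sites were similar with 51.0% inside. The members belonged to 578 genes as holder or nearest gene. ST3GAL1, a sialyltransferase gene, had 4 members, and CDYL (a chromodomain corepressor), ASAP1 and SERP2 had 3 each, all named here after the counts were seen. Another constant site lay within 50 kb of 113 members (18.2%) and of 18.1% of held sites, and a held site lay within 50 kb of 17 members.

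Of the 10 gene lists, that of red cell genes had the largest share of genes with a member. Of 40 genes for the red cell membrane, blood groups and iron, 17 (42.5%) had a member in the gene or within 10 kb, 7 (17.5%) a partly held site and 3 (7.5%) a held site. The same shares among 19974 protein-coding genes were 2.54%, 1.5% and 0.836%. The lists were chosen with earlier results of these data known, so this contrast is a description and not a test. The member genes were SPTB, ANK1, EPB41, DMTN and TMOD1 of the membrane skeleton, SLC4A1 (the anion exchanger band 3) with 2 sites, the glycophorins GYPB, GYPC and GYPE, the Rhesus genes RHAG and RHD, ICAM4, the carbonic anhydrase CA1, the transferrin receptors TFRC and TFR2, the mitochondrial iron importer SLC25A37 and the ferritin heavy chain gene FTH1. Held sites lay at EPB42, TMCC2 and CA1. Of the 18 member sites, 9 had an HA-GATA2 anti-HA peak in 4 of 4 libraries and 7 in 3, and their mean percentiles ran from 10.8 at ICAM4 to 79.2 at RHAG with a median of 41.8.

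With T354M against HA-GATA2, 2 of these 18 sites were lower and none higher, where 8.92% of all constant sites were lower and 10% higher. The GYPB site had percentiles of 69.4, 82.3, 65.8 and 79.9 with HA-GATA2 and 24.2, 61.8, 55.9 and 57.8 with T354M (limma adjusted p = 0.0412), and the 2 groups did not overlap. Its mean was 37.8 in wild-type cells and 38.9 with empty vector in GATA2-low cells, both below the T354M mean of 49.9. The HA-GATA2 cells were thus the ones that stood apart. The GYPB call rests on a paralogous promoter and was lost by fold and without any of HA-GATA2 replicates 1, 2 and 4, T354M replicates 1 and 3 and wild-type replicate 3, with adjusted p up to 0.156. The other was the site near SLC25A37, with a limma adjusted p of 0.017. In GATA2-low against wild-type cells 4 of the 18 were higher and none lower, where 13.2% of all members and 8.67% of all constant sites were higher and 3.71% and 7.92% lower. They were at SPTB, SLC4A1 (the site inside the gene, limma adjusted p = 0.0293), RHD and CA1 (limma adjusted p = 0.0145). Without empty vector replicate 1 the adjusted p was 0.0841 at SLC4A1, which lost the call, and 0.0045 at CA1. The sites at TFR2 and SLC25A37 then passed as higher (limma adjusted p = 0.0236 and 0.0293). SPTB had 4.21, 4.88, 2.83 and 4.38 in wild-type cells and 28.5, 8.75, 37.3 and 6.75 with empty vector in GATA2-low cells, so all 8 libraries placed it among the weaker constant sites (limma adjusted p = 0.0299). The SPTB call was lost by fold, with adjusted p = 0.0855, on untransformed percentiles, and without wild-type replicates 1, 3 or 4 or empty vector replicates 1 or 3.

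**Figure D5:**
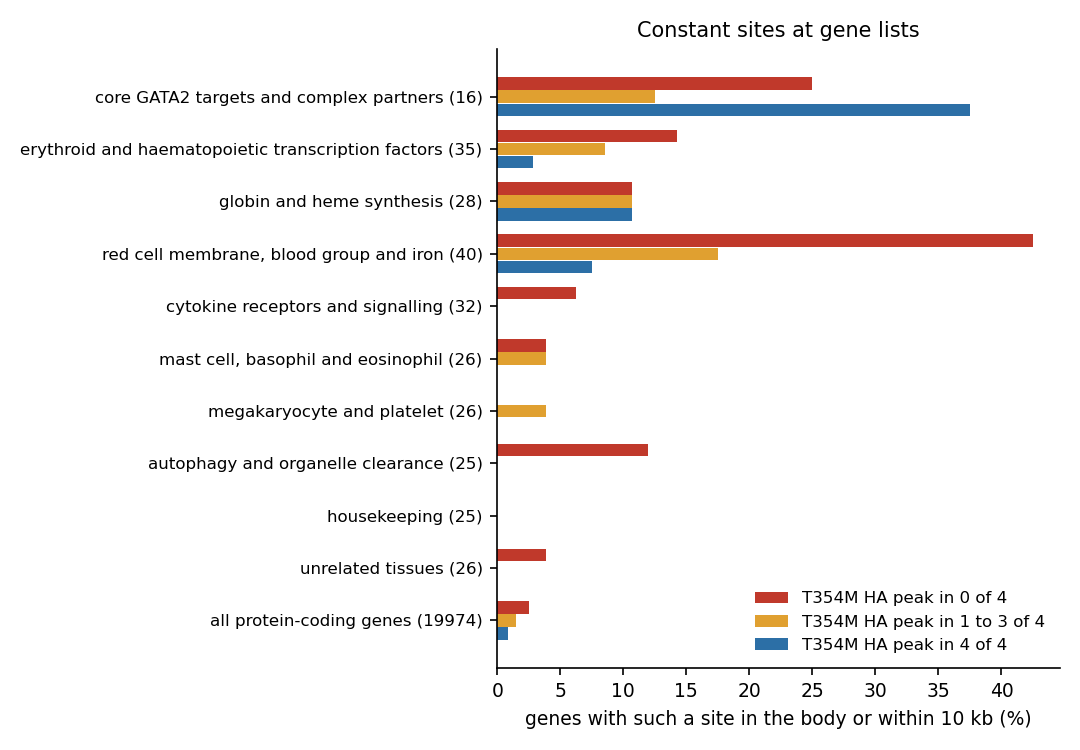
Percent of the genes of each list (y axis, number of genes matched in brackets) with a member, partly held or held site in the body or within 10 kb (x axis). The list of red cell membrane, blood group and iron genes has the largest share with members, 42.5%, and core GATA2 targets the largest share with held sites, 37.5%. The lists were chosen with earlier results of these data known.

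Core GATA2 targets and partners had both kinds of site. Of 16 genes 4 had a member (GATA1, LMO2, MYB and ZFPM1), 2 a partly held and 6 a held site (GATA2 itself, LYL1, ZFPM1, ZFPM2, HDC and PDZK1IP1). ZFPM1, which encodes the GATA cofactor FOG1, had 3 held sites and 1 member (chr16:88468416-88469020), and that member had the lowest mean percentile of all 620, at 2.33. GATA1 had its member at chrX:48782525-48784112, beside a partly held site, with a mean percentile of 34.2. LMO2, the bridging protein of the GATA and TAL1 complex, had one with a mean of 26.0. The member inside MYB, a regulator of progenitor growth, was lower with T354M than with HA-GATA2 by 0.88 ± 0.26 (SE, limma adjusted p = 0.0236). Its mean percentile was 10.2 in wild-type cells, 21.4 with empty vector in GATA2-low cells, 34.7 with HA-GATA2 and 10.6 with T354M. T354M cells thus lay near wild-type cells. The call was lost by fold, with adjusted p = 0.229, and without any of HA-GATA2 replicates 1, 3 and 4 or T354M replicates 1, 2 and 3.

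Among 35 erythroid and haematopoietic transcription factor genes, 5 had a member (KLF1, NFE2, GFI1B, TCF3 and STAT5A, the last through 2 sites shared with STAT3), 3 a partly held and 1 a held site. At KLF1 the percentiles were 46.2, 22.1, 19.8 and 12 with HA-GATA2 and 35.8, 23.5, 17.0 and 31.3 with T354M, which overlap widely (limma adjusted p = 0.886). None of the 6 sites was called between T354M and HA-GATA2. The TCF3 member, like that at GAD1, had an HA-GATA2 anti-HA peak in 0 of 4 libraries.

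Of 28 globin and heme synthesis genes, 3 had a member, 3 a partly held and 3 a held site. CPOX had its member at the promoter printed above and a partly held site inside the gene. The member inside TMEM14C, a heme precursor transporter gene, was lower with T354M than with HA-GATA2 by 1.19 ± 0.34 (SE, limma adjusted p = 0.0197). Its mean percentile was 2.97 in wild-type cells, 13.8 with empty vector in GATA2-low cells, 37.5 with HA-GATA2 and 9.06 with T354M. The T354M mean was thus not below the wild-type mean. That call was lost by fold and without HA-GATA2 replicate 4 or T354M replicates 2 or 3, with adjusted p up to 0.0734.

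The other lists had few members. Autophagy and organelle clearance had 3 of 25 genes (ATG2A, ATG14 and UBE2O), each with HA-GATA2 anti-HA peaks in 4 of 4 libraries and none called in either contrast. Cytokine signalling had 2 of 32 (JAK1 and STAT3), mast cell genes 1 of 26 (ENPP3), genes of unrelated tissues 1 of 26 (GAD1), and megakaryocyte and housekeeping genes 0 of 26 and 0 of 25. As gene lists differ in gene length and in how they were chosen, these shares are descriptions.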

How the data were processed

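The members and gene lists were chosen with earlier results of these data known. The submitters' processing notes list MACS2 2.2.7.1, Bowtie2 2.2.5, cutadapt 3.3, FastQC and deepTools 3.5.3, and hg38 as the build. How each was set is not given in the sources used here. The authors deposited 1 peak list per library, with a fold enrichment per peak (a linear ratio to the local background), its p-value and q-value as -log10, and a score of 10 times the -log10 q. The deposited values were used to rank and filter peaks within a list and, for anti-HA, to recover fragments at each summit. The 8 IgG libraries had no list used here.

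Of 120964 peaks 120509 were kept (chromosomes 1 to 22 and X). Genes came from RefSeq GRCh38.p14. Percentiles among the 1200 constant sites were turned into normal scores and tested with limma over all of them in 16 libraries with 4 group means, Benjamini-Hochberg threshold 0.05, tested on simulated data. Peak presence was tested with Fisher's exact test. Exact permutation tests planned for the median percentile and summit distance of the members are replaced by values, because the members were chosen on these data. Sites were named by a fixed rule: the 10 strongest, up to 4 per list, the 5 largest non-overlapping falls and rises, the 3 strongest with 4 or with 0 HA-GATA2 anti-HA peaks, and 6 promoters by number of GATA words. Some items the rule covers are left out of the text. Replicate numbers were not treated as pairs. Alternatives were a -log10 q of at least 15, peaks trimmed to 100 bp on either side of the summit, ranking by fold, untransformed percentiles, a replicate block, anti-HA lists of equal length, each library left out, and, added after seeing the data, a wider adjustment of the Fisher test.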

Additional observations from a re-analysis of the deposited data

Results flagged for a closer look

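Among 118 groups of 4 values checked, 10 had a lowest or highest value far from the other three by Dixon's criterion; chance flags about 1 in 20 groups. The share of members with an HA-GATA2 anti-HA peak was 48.4% in replicate 4, far below the other three. The other 9 were percentiles of named sites: 88.6 at RESF1, 24.2 at GYPB and 46.8 at LOC101927281 in T354M replicate 1, 81.1 at PKHD1L1 in T354M replicate 4, 34.5 at KIAA0232 in HA-GATA2 replicate 1, 15.2 at SPTB in HA-GATA2 replicate 3, 17.6 at EPN2-IT1 in wild-type replicate 3, 15.8 at CPOX in wild-type replicate 4, and 63.2 at FHOD3 in GATA2-low empty vector replicate 1. The last is the library whose genotype label reads wild-type; its 3 group mates stood at 9.83, 3.5 and 2.88 there.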

How the results depend on the processing

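Leaving out each library in turn, in the rule and in the test, gave 620 to 728 members, 75.9% to 91.0% with an HA-GATA2 anti-HA peak, 299 to 520 called for HA-GATA2 against empty vector, 75 to 171 changed between T354M and HA-GATA2 and 74 to 132 between GATA2-low empty vector and wild-type. The differences in median percentile ran from -2.28 to -1.83 for T354M minus HA-GATA2, 2.94 to 4.14 for GATA2-low empty vector minus wild-type, -2.65 to -1.56 for HA-GATA2 minus GATA2-low empty vector, -4.88 to -3.51 for T354M minus GATA2-low empty vector, 1.26 to 1.69 for HA-GATA2 minus wild-type and -0.965 to -0.365 for T354M minus wild-type. The summit distance, between minus within groups, ran in the same order of pairs from -0.403 to 0.0833, -2.62 to 0.889, -1.75 to 2.28, -1.97 to 1.04, -0.556 to 0.111 and -0.431 to -0.167 bp. Anti-HA lists of equal length gave 5.56% of members with an HA-GATA2 peak and 14 called, and the wider Fisher adjustment gave 0 called. Ranking by fold gave 37 changed members for T354M against HA-GATA2 and median differences of -3.48, 1.16, 3.21, -0.27, 4.36 and 0.885 in the order above. Peaks with -log10 q of at least 15 gave -3.11 for T354M minus HA-GATA2, -5.48 for T354M minus GATA2-low empty vector and 2.31 for HA-GATA2 minus wild-type. The cause of these shifts was not tested. The other 510 of 525 values of summary results, leave-one-out fits included, stayed within 1 SD or 1.5 times the reported value. A replicate block gave 141 changed members for T354M against HA-GATA2 and 109 for GATA2-low empty vector against wild-type. Same-numbered libraries correlated at -0.0742 to 0.267, with 8 of 24 correlations over 0.1. In 17 of 24 comparisons a library was closest to its own number, a hint of pairing in the data that the labels do not give, so the numbers were not used as pairs. The planned blocked permutations of the medians and summits were not run. Among named sites, 78 of 3184 alternative values lost a call and 27 gained one, and none reversed. Depth limits what the absence of a T354M anti-HA peak shows.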
